A study of Cucumis sativus with 4 samples.

Results

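Of 17180 cucumber genes listed for young fruits, 298 were close to silent in the line OX-29 while being clearly expressed in the wild type. The members were selected on the deposited values: both OX-29 libraries lay below 1 CPM and both WT libraries held at least 10 CPM, where CPM is a gene's reads per 1000000 reads of its library. They made up 1.73% of the listed genes and 2.49% of the 11991 genes that reached 10 CPM in both WT libraries. Because all 4 libraries chose the members, the difference between the lines is given for them as a description, with no test. What was not used to choose them is their place along the chromosomes and the genes beside them. The agreement of the WT libraries with each other was used only through the floor of 10 CPM in both, which limits how far these libraries can differ in genes near that floor.

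The fruits of cucumber (Cucumis sativus) were harvested 4 days before anthesis, as ovaries of flowers that had not opened. OX-29 plants carried CsFUL1 under the cauliflower mosaic virus 35S promoter, a strong promoter active in most plant tissues, in the inbred line R1407, and bore short fruits. WT plants were R1407 itself, without the construct, and bore long fruits. For each line 2 libraries were sequenced as biological replicates, and the labels do not say how many plants or fruits went into a library. OX-29 is the only transformed line sampled, so effects of CsFUL1 and other traits of that line cannot be told apart. The files pair no identifier with a gene name, and no name or function is given to a member, so neither the transgene nor markers of tissues could be looked up.

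CsFUL1 belongs to the MADS-box transcription factors and is related to FRUITFULL of Arabidopsis, which is needed for the fruit wall to differentiate and for the fruit to elongate after fertilisation. MADS-box proteins act in complexes and can activate or repress their targets. The identifiers of cucumber genes carry a chromosome digit and a number that runs along the chromosome. In plant genomes, relatives that arose by local duplication often stand side by side, in particular in families of defence and specialised metabolism. Genes next to each other in the lists below are neighbours by identifier, and whether they are such duplicates was not tested, as no sequences were used here.

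The libraries held 16719990 and 16326412 reads on listed genes in OX-29 and 19824797 and 16858940 in WT, so that 1 CPM corresponded to 16.3 to 16.7 reads in OX-29. A gene with 0 reads in an OX-29 library may have a level of up to 0.179 CPM in replicate 1 or 0.184 CPM in replicate 2 (3 counts), which covers counting error only.

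Together the 298 members took 0.0107% and 0.0120% of the reads in the OX-29 libraries and 1.46% and 1.45% in the WT libraries. In reads, that was 1792 and 1952 in OX-29 against 290107 and 244716 in WT. The median member had 0.299 and 0.368 CPM in OX-29 replicates 1 and 2, against 27.5 and 24.8 CPM in WT replicates 1 and 2. In these bulk samples, fewer cells of a type that expresses a gene and less RNA per cell cannot be told apart.

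**Figure D1:**
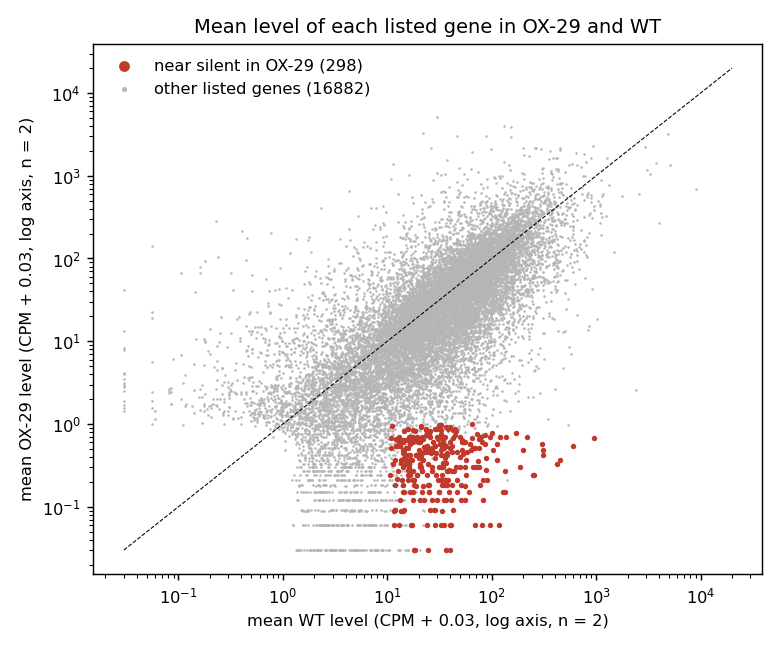
Mean level of each of the 17180 listed genes, with OX-29 on the vertical axis and WT on the horizontal axis (CPM plus 0.03, both axes logarithmic, n = 2 libraries per line). The 298 members, in red, lie below the dashed line of equal level and continue into the cloud of other genes with no gap at the limits that define them.

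Few members were without any read in OX-29. Only 5 had 0 reads in both libraries, 65 had 1 to 5 reads over both, 120 had 6 to 15, and 108 had more than 15, with 32 reads as the highest. Reads were found in both OX-29 libraries for 259 members, while 26 had none in replicate 1 and 18 had none in replicate 2. Most members therefore still had reads in OX-29 at this depth, though few. Whether all of these reads came from the members themselves was not tested.

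The ratio of the WT level to the OX-29 level, from pooled reads of each line, ran from 12.0 to 3966 over the 293 members with at least 1 OX-29 read, with a median of 95.6. It reached 100 or more for 137 members and stayed under 30 for 29. The smallest ratio was that of Csa5G159620, with 30 reads in OX-29 and 401 in WT (12.0-fold lower in OX-29, exact 95% counting interval 8.30 to 18.1). The largest belonged to Csa1G228960, with 1 read in OX-29 and 4402 in WT, a ratio of 3966 with an exact 95% counting interval of 711 to 156665. In limma's test over all 16982 genes tested, all 298 members passed as lower in OX-29, where 38.4% of all genes did and 18.6% passed as higher. The choice of members fixes that count.

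The limits cut through a continuous range of levels. Among the 11991 genes at 10 CPM or more in both WT libraries, the higher OX-29 library lay below 0.5 CPM for 164, from 0.5 to 1 CPM for 134, from 1 to 2 CPM for 194 and from 2 to 5 CPM for 561. Just inside the limit for OX-29 stood Csa1G042700, with 0.359 and 0.980 CPM in OX-29 and 127 and 312 CPM in WT. Just outside stood Csa2G270180, with 1.02 and 0.429 CPM in OX-29 and 74.3 and 72.4 CPM in WT. At the limit for WT, the member Csa1G005490 had 0.120 and 0.123 CPM in OX-29 and 18.9 and 10.0 CPM in WT, and the non-member Csa2G171840 had 0.239 and 0.306 CPM in OX-29 and 12.5 and 9.79 CPM in WT.

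The members were mostly genes of middle abundance in WT, with a few strongly expressed ones. Their mean WT levels had a median of 28.6 CPM, and the middle 50% of them lay between 17.7 and 44.5 CPM. By WT mean, 92 members stood at 10 to 20 CPM, 139 at 20 to 50 CPM, 44 at 50 to 100 CPM and 23 at 100 CPM or more. Read against all genes of the same WT class with both libraries at 10 CPM or more, members made up 5.05% of the lowest class, 3.11% and 1.39% of the next ones, and 0.910% of the highest. The limit of 1 CPM in OX-29 requires a larger fall of genes with a higher WT level. The rule itself thus favours the lower classes, and how much of the decline it accounts for was not tested. The 10 most abundant members held 27.8% of the summed WT level of all members.

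Csa7G067350 was the most abundant member in WT. It had 0.299 and 0.980 CPM in OX-29, against 678 and 1214 CPM in WT, which is 1455-fold lower in OX-29 from pooled reads (exact 95% counting interval 952 to 2351). Csa5G470560 had 0.359 and 0.674 CPM in OX-29, against 484 and 704 CPM in WT. In both genes the lines lay about 3 orders of magnitude apart, while the libraries of a line differed far less.

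Csa5G636450 had 0.120 and 0.551 CPM in OX-29, against 682 and 218 CPM in WT, so its WT libraries differed 3.13-fold. Csa7G044980 was more even, with 0.299 and 0.306 CPM in OX-29 and 373 and 461 CPM in WT. Csa1G542510 had 0.299 and 0.613 CPM in OX-29 and 323 and 303 CPM in WT. Csa7G322600 showed WT libraries of equal level, with 0.120 and 0.674 CPM in OX-29 and 308 and 308 CPM in WT. Among these genes, the spread between WT libraries ran from none to over 3-fold.

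Csa2G340400 had 0.299 and 0.796 CPM in OX-29 and 273 and 326 CPM in WT. Csa1G060770 had 0.239 and 0.184 CPM in OX-29 and 358 and 155 CPM in WT. Csa7G067370 had 0.0598 and 0.368 CPM in OX-29 and 168 and 328 CPM in WT. The 10th gene by WT level was Csa1G042700, whose values stand above with the limits. In OX-29 these 10 genes had 1 to 16 reads per library, so differences between the OX-29 replicates rest on few reads.

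The 5 members with 0 reads in both OX-29 libraries were of ordinary abundance in WT. CsaUNG012530, the only member not placed on a chromosome, had 30.8 and 48.1 CPM in WT, so that OX-29 was at least 427-fold lower when set to 3 reads over both of its libraries. Csa7G018820 had 52.4 and 20.6 CPM in WT, at least 416-fold lower in OX-29 by the same bound. Csa6G083030 had 11.7 and 37.3 CPM in WT, at least 258-fold lower in OX-29. Csa1G479640, with 11.5 and 25.3 CPM in WT, and Csa3G760500, with 14.2 and 21.4 CPM in WT, had bounds of 196-fold and 193-fold. None of the 10 most abundant members was among these 5.

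**Figure D2:**
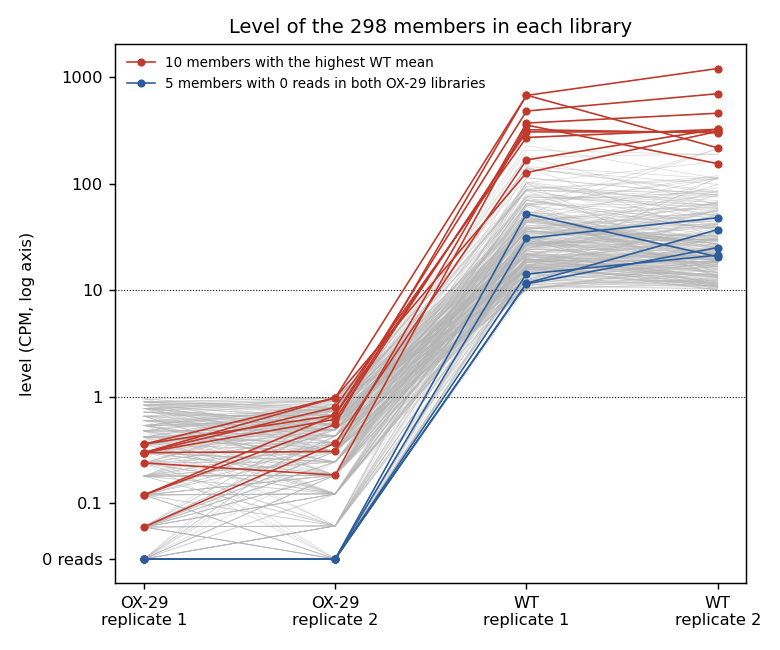
Level of each of the 298 members in the 4 libraries (CPM, logarithmic axis, one line per gene, values of 0 drawn at the lowest tick). The dotted lines mark the limits of 1 and 10 CPM. The 10 members with the highest WT mean (red) end between 127 and 1214 CPM in WT, and the 5 with 0 OX-29 reads (blue) between 11.5 and 52.4 CPM.

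The WT libraries agreed less well on the members than on other genes of the same level. The floor of 10 CPM holds for members and other genes alike. Of the 298 members, 62 (20.8%) differed at least 2-fold between WT replicates 1 and 2, against 634 (5.42%) of the 11693 other genes at 10 CPM or more in both. The median absolute log2 ratio of the WT libraries was 0.53 for members and 0.29 for the others. By WT level the medians for members and others were 0.39 and 0.27 at 10 to 20 CPM, 0.61 and 0.29 at 20 to 50 CPM, 0.76 and 0.26 at 50 to 100 CPM, and 0.67 and 0.32 at 100 CPM or more. Members thus had the wider median in each of the 4 classes, and with at least 169 reads per WT library these ratios are well above single-read steps.

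Other genes that were much lower in OX-29 also spread more between the WT libraries than genes at large, but less than the members at WT means above 20 CPM. These were the 650 non-members at 10 CPM or more in both WT libraries that passed limma's threshold with a fall of 8-fold or more, and 117 of them (18.0%) differed at least 2-fold between the WT libraries. The median absolute log2 ratio for members and for these genes was 0.61 and 0.48 at 20 to 50 CPM, 0.76 and 0.49 at 50 to 100 CPM, and 0.67 and 0.44 at 100 CPM or more. At 10 to 20 CPM it was 0.39 and 0.36. The 650 genes had to pass a test that favours a small spread, and no test was made between the sets, since the genes of a library vary together.

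The differences between the WT libraries went both ways. WT replicate 2 was the higher one for 128 members (43.0%), close to the 43.4% over all genes at 10 CPM or more in both WT libraries. At 3-fold or more, 13 members were higher in WT replicate 2 and 12 in WT replicate 1. These 25 made up 8.39% of the members, against 1.13% (132 genes) of the others. The widest gaps, picked after their values were seen, were those of Csa6G010000 and Csa3G734210. Csa6G010000 had 0.478 and 0.0613 CPM in OX-29, with 16.2 CPM in WT replicate 1 and 115 CPM in WT replicate 2. Csa3G734210 had 0.419 and 0.429 CPM in OX-29, with 102 CPM in WT replicate 1 and 14.4 CPM in WT replicate 2. For such genes the WT level is known only to within a factor set by these 2 libraries. Either WT library alone lies more than 10-fold above both OX-29 libraries, but the rule requires that of every member.

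**Figure D3:**
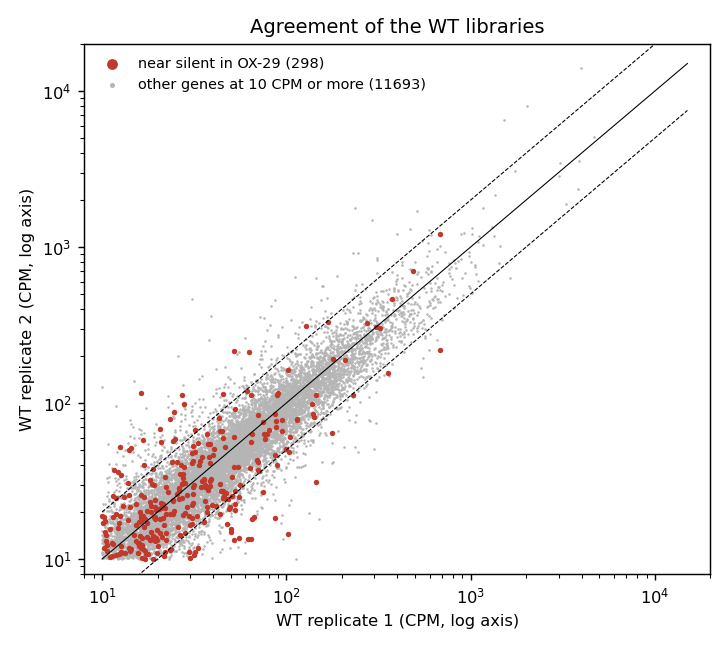
Levels in WT replicate 2 against WT replicate 1 (CPM, logarithmic axes) for the 298 members (red) and the 11693 other genes at 10 CPM or more in both (grey). The solid line marks equal levels and the dashed lines a 2-fold difference; 62 members lie on or outside the dashed lines, on both sides.

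Members were found under every chromosome digit. Chromosome 6 held 60, chromosome 3 held 55, chromosome 1 held 47, chromosome 2 held 41, chromosome 4 held 38, chromosome 5 held 31 and chromosome 7 held 25, and 1 was unplaced. As a share of listed genes these counts ran from 1.37% on chromosome 5 to 2.08% on chromosome 6, around 1.73% overall. Relative to genes at 10 CPM or more in both WT libraries the order of the chromosomes was the same, from 1.98% on chromosome 5 to 2.95% on chromosome 6. The members of chromosome 7 were few but had the highest median WT level among the numbered chromosomes, 36.8 CPM, and those of chromosome 6 the lowest, 23.8 CPM. No chromosome stood apart by more than these shares, and no test of the counts was made.

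Cut into windows of 100 listed genes in identifier order, the chromosomes gave 167 full windows with 1.75 members on average. There were 34 windows with no member, 46 with 1, 43 with 2, 28 with 3 and 7 with 4, and 9 windows held 5 or more. The fullest, with 7 members, lay on chromosome 1 from Csa1G056910 to Csa1G071840 and included the abundant neighbours Csa1G060760 and Csa1G060770. The next, with 6, lay on chromosome 6 from Csa6G434400 to Csa6G452100 and held 2 pairs of neighbouring members. Of the 9 windows with 5 or more members, 5 were on chromosome 6, which held 20.1% of all members and 16.8% of all listed genes. No test was made on the windows.

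**Figure D4:**
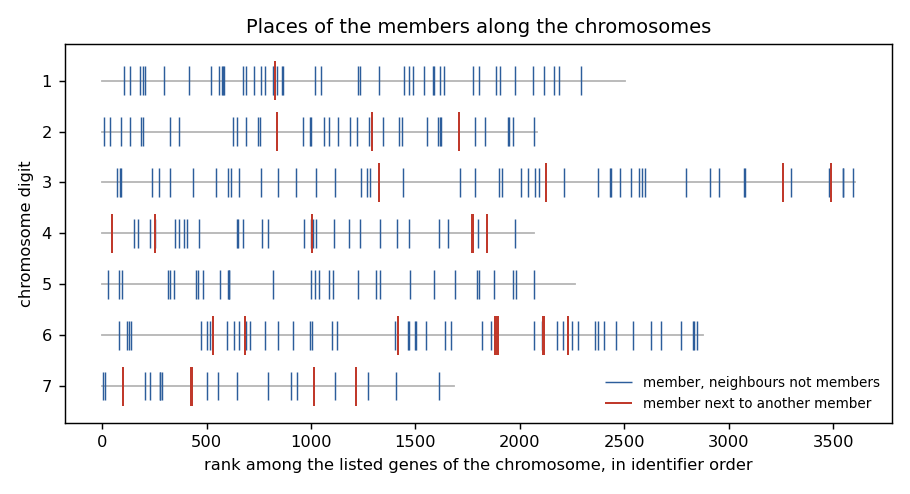
Places of the 297 placed members along the 7 chromosomes, by rank among the listed genes of each chromosome in identifier order. Tall red marks are the 48 members that stand next to another member, and blue marks the other 249. Chromosome 5 has no red mark and chromosome 6 has 14 such members.

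Of the 297 placed members, 48 (16.2%) stood directly next to another member, in 24 pairs. No group of 3 or more successive listed genes was found. Of the 594 places next to a member, 48 (8.08%) were held by another member, while members were 1.74% of the placed genes. In 13 pairs the identifier numbers were 10 apart, the usual step between neighbouring genes, in 4 they were 20 or 30 apart, and in 7 they were more than 100 apart, so that genes not listed may lie between. Chromosome 6 held 7 pairs, chromosome 4 held 5, chromosomes 3 and 7 held 4 each, chromosome 2 held 3, chromosome 1 held 1 and chromosome 5 none. Looking further, 56 members had another member within 2 listed places, 80 within 5 and 109 within 10.

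The pairs described here were picked after their values were seen, by their WT level or by the values of the genes beside them. The most abundant pair was Csa7G067350 with Csa7G067370, both among the 10 leading members. Both were higher in WT replicate 2, by 1.79-fold and 1.95-fold. The listed gene before them, Csa7G067340, had 0.0598 and 0.0613 CPM in OX-29 and 7.62 and 15.5 CPM in WT, and missed membership through its WT level alone. It was lower in OX-29 by limma (log2 fold change -4.34, adjusted p = 0.00097). The gene after them, Csa7G067400, had 7.12 and 4.23 CPM in OX-29 and 9.08 and 21.2 CPM in WT, and did not pass (log2 fold change -1.26, limma adjusted p = 0.0685).

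The pair Csa1G060760 and Csa1G060770 was the next by WT level. Csa1G060760 had 0.0598 and 0.184 CPM in OX-29 and 145 and 112 CPM in WT, and the values of Csa1G060770 were of the same order. The next listed gene, Csa1G062290, is 1520 identifier numbers away, so that genes not listed may lie between. It was higher in OX-29, with 1276 and 1238 CPM there and 261 and 357 CPM in WT (log2 fold change 2.04, limma adjusted p = 0.00199). On the other side, 500 numbers away, Csa1G060260 had 0.598 and 1.41 CPM in OX-29 and 55.8 and 9.61 CPM in WT, and beyond it stood a further member, Csa1G059750, with 0.478 and 0.245 CPM in OX-29 and 31.5 and 10.6 CPM in WT.

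On chromosome 4, Csa4G286940 had 0.0598 and 0.429 CPM in OX-29 and 145 and 31.2 CPM in WT. Its neighbour Csa4G286950 had 0.120 and 0.184 CPM in OX-29 and 64.8 and 18.0 CPM in WT. The WT libraries differed in the same direction in both, 4.64-fold and 3.61-fold. Csa4G286930, just before them, separates them from another member, Csa4G286920. It had 18.5 and 15.1 CPM in OX-29 and 49.0 and 60.4 CPM in WT, and was lower in OX-29 as well (log2 fold change -1.67, limma adjusted p = 0.00202). Csa4G286960, just after them, had 15.3 and 19.6 CPM in OX-29 and 46.3 and 28.2 CPM in WT and was also lower (log2 fold change -1.04, limma adjusted p = 0.0295).

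On chromosome 3, 4 successive identifiers were low in OX-29, of which the middle ones were members. Csa3G872740 had 0 and 0.0613 CPM in OX-29 and 14.4 and 11.6 CPM in WT, and Csa3G872750 had 0 and 0.0613 CPM in OX-29 and 95.2 and 66.1 CPM in WT. Csa3G872730 before them had 0.957 and 1.29 CPM in OX-29 and 26.2 and 28.2 CPM in WT. Csa3G872760 after them had 0 and 0.0613 CPM in OX-29 and 9.03 and 8.19 CPM in WT. Both flanking genes thus lay just outside the limits, 1 at the OX-29 limit and 1 at the WT limit.

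On chromosome 6, Csa6G107330 had 0.0598 and 0 CPM in OX-29 and 16.9 and 40.3 CPM in WT, and its partner Csa6G107880, 550 identifier numbers away, had 0.299 and 0.613 CPM in OX-29 and 19.2 and 30.01 CPM in WT. The gene before them, Csa6G107320, had 0 reads in both OX-29 libraries and 7.67 and 24.0 CPM in WT. The gene after them, Csa6G107890, had 24.0 and 23.2 CPM in OX-29 and 12.2 and 19.2 CPM in WT and did not pass (log2 fold change 0.61, limma adjusted p = 0.112). Over all 24 pairs, 28 of the 45 tested genes that flank a pair passed limma's threshold as lower in OX-29 and 4 as higher. Among all 16982 genes tested, 38.4% were called lower and 18.6% higher. Of the 531 tested non-members beside any member, which include these flanking genes, 50.3% were called lower. In log2 fold change, the medians were -1.26 for the flanking genes and -0.38 for all genes. No test was made on these counts.

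Levels within a pair often differed. The higher partner exceeded the lower one in mean WT CPM by 1.03-fold to 6.21-fold, with a median of 1.89-fold, and 13 of 24 pairs lay within 2-fold. CPM is not corrected for gene length, so these ratios describe reads and not transcripts. In 17 of the 24 pairs (70.8%) both partners were higher in the same WT library. Over all 8400 pairs of neighbouring genes in which both genes reached 10 CPM in both WT libraries, the share of pairs was 52.6%. These sets are not matched, as the median absolute log2 ratio of the WT libraries was 0.53 for members and 0.29 for other such genes. Ratios near equal level count as a direction too, such as that of Csa7G372860 (log2 ratio 0.008). No test was made between the shares.

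Genes beside a member were lower in OX-29 more often than genes in general, although they were not chosen by the rule. Of 531 tested non-members directly next to a member, 267 (50.3%) passed as lower in OX-29 and 80 (15.1%) as higher, where 38.4% and 18.6% of all genes tested did (limma, Benjamini-Hochberg adjusted p under 0.05). Their median log2 fold change was -0.75, against -0.38 over all genes. A fall of 8-fold or more was called for 65 of them (12.2%), against 7.59% of all genes tested. Both OX-29 libraries were below 1 CPM for 74 neighbours (13.9%), against 7.33% of all genes tested. The sets are not alike, as all genes tested include the 298 members and the neighbours do not. Every member passed as lower with a fall of 8-fold or more and lay below 1 CPM in OX-29, which raises those shares over all genes. No chance test was made on these shares.

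The excess faded with distance. The share called lower was 43.2% at 2 places from a member, 42.2% at 3, 36.8% at 4 and 39.5% at 5, and it ran from 35.1% to 38.9% at 6 to 10 places. The median log2 fold change was -0.57 at 2 places, -0.51 at 3 and -0.30 at 4. Scaling by the median of ratios moved the median log2 fold change of all genes to -0.02 and the share of falls among calls to 51.4% from 67.4%. Under it 37.6% of neighbours were lower, against 28.99% of all genes. Without OX-29 replicate 1 the share was 31.9% of neighbours and 24.7% of all genes, and without OX-29 replicate 2 it was 31.7% and 24.9%. In each of these settings the share was higher beside members. The strand setting of the counting is unknown, and a part of reads shared by overlapping genes in the likeness of neighbours was not tested.

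**Figure D5:**
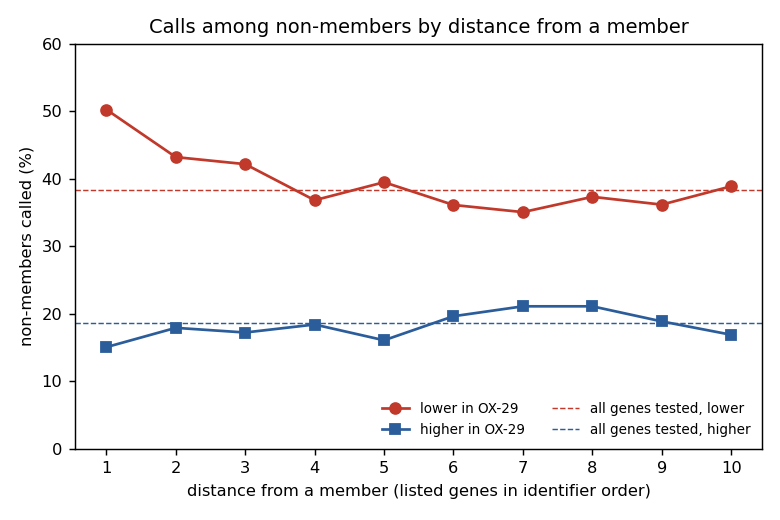
Share of tested non-members that passed limma's threshold as lower (red) or higher (blue) in OX-29, by distance from the member in listed genes in identifier order. Dashed lines give the shares over all 16982 genes tested, 38.4% and 18.6%; the red points start at 50.3% and reach the dashed line at 4 places.

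Not every member had a neighbour that was lower. Of the 242 placed members with a tested non-member on either side, 62 (25.6%) had no neighbour that passed as lower, 121 had 1 and 59 (24.4%) had both. Among the 4333 other genes that passed as lower, reached 10 CPM in both WT libraries and likewise had tested non-members on either side, 33.4% had no such neighbour and 17.4% had both. Taking all 11035 such other genes, lower or not, the shares were 39.5% and 13.9%. Lowered genes outside the members thus also had lower neighbours more often, though less so than the members. Among the abundant members, Csa2G340400 had no neighbour that passed as lower. Its nearest listed genes, between which and it genes not listed may lie, were Csa2G338900, with 23.2 and 18.8 CPM in OX-29 and 35.4 and 18.3 CPM in WT, and Csa2G345900, with 2.21 and 3.00 CPM in OX-29 and 4.89 and 4.75 CPM in WT. Neither passed (limma adjusted p = 0.524 and 0.0809). Csa5G636450 also had no neighbour that passed as lower. Beside it, Csa5G636460 did not pass (log2 fold change 0.04, limma adjusted p = 0.925). On the other side, Csa5G635950 had 0 and 0 CPM in OX-29 and 1.31 and 2.25 CPM in WT. It was not tested, as its mean lay below 1 CPM. Each of the other leading members had a neighbour that passed as lower, when neighbours that are members are counted.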

How the data were processed

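Polyadenylated RNA was sequenced as paired reads on an Illumina instrument, per the labels' protocols. TopHat (aligner) and HTSeq (counter) are named in the submitters' processing notes; for versions, build, annotation and strand setting the sources used here give nothing. The deposited values are CPM, computed by the authors: each column sums to 1000000 over the 17180 listed genes. All values (100%, tolerance 0.001 reads) were whole multiples of the column's smallest value, so whole reads were recovered. Per-sample columns left out numbered 0. None of the identifiers matched the 23999 RefSeq genes at hand (0 matches).

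limma 3.58.1 (R 4.3.3) was fitted to log2(CPM + 0.5), with line as the only term, trended eBayes and p-values adjusted by Benjamini-Hochberg over all 16982 genes whose mean reached 1 CPM; this scale understates changes of low genes. Its p-values set the difference between the lines against the spread within lines, from 2 libraries per line and moderated over all genes tested. edgeR 4.0.16 and DESeq2 1.42.0 on recovered reads were alternatives; edgeR called 9390 genes. Neighbours are successive listed genes of one chromosome in identifier order (17090 placed; 84 unplaced and 6 with short identifiers left out). Counting intervals are exact (Clopper-Pearson on the read split) and cover counting error only. The limma fit was tried on simulated counts, with changes planted in genes well above near-silent levels. The neighbour search was tried on planted identifiers. The edgeR and DESeq2 fits were not tried in this way.

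The members and lists were chosen with earlier results of these data known. Named members were the 10 highest in WT, those with 0 OX-29 reads and those at the limits; other names were chosen after their values were seen.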

Additional observations from a re-analysis of the deposited data

How the results depend on the processing

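The number of members depended on the limits. It was 164 with OX-29 below 0.5 CPM, 492 with OX-29 below 2 CPM, 496 with WT at 5 CPM or more and 153 with WT at 20 CPM or more. Members next to another member then numbered 22, 83, 107 and 10, which is 13.5%, 17.0%, 21.6% and 6.58% of the members under each limit. A smaller group leaves fewer genes that can be a member's neighbour, so these shares also depend on the number of members. With identifier numbers exactly 10 apart they numbered 26 (8.75%), and the non-member neighbours lower in OX-29 numbered 169, fewer places being counted by construction. Median-of-ratios scaling gave 236 members, all among the 298. Leaving out each library removes a condition, so counts can only stay or rise: 342 to 417 members, with 55 to 78 next to another (16.1% to 18.8%), the highest without WT replicate 2.

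Over all genes, leaving out each library gave 5801 to 9242 calls, 4198 to 6224 lower and 1603 to 3254 higher. Non-member neighbours lower in OX-29 then numbered 170 to 245 (31.7% to 47.2%). The low ends came without an OX-29 replicate, where only the WT pair sets the spread and the lone OX-29 library is assumed to vary alike. The replicate numbers pair no samples by the labels, and across genes the difference between replicates in OX-29 correlated with that in WT at -0.02. The replicate block gave 9420 calls and 260 neighbours lower (49.0%, against 37.6% of all genes tested in that setting). The split of calls shifted with scaling: 4917 lower and 4640 higher by median-of-ratios, 4967 and 4423 by edgeR, 5047 and 4612 by DESeq2, against 6522 and 3155. DESeq2 called 297 of 298 members lower, and every other setting called 298. Depth limits near-silent levels to about 0.18 CPM per OX-29 library.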

Other observations

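The opposite group, with both WT libraries below 1 CPM and both OX-29 libraries at 10 CPM or more, held 38 genes, and 2 of them stood next to each other as a single pair. None of the 38 was a direct neighbour (0 genes) of a gene that was near silent in OX-29. Those genes were 1.74% of the placed genes, so a count of 0 in a group of this size does not show that the groups lie apart. The groups differ in size, so the counts of pairs are given side by side without a comparison.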
